A study of Mus musculus with 6 samples.

Results

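Iron uptake, storage and heme genes were examined in lumbar spinal cord of mice labelled Egr3-deficient and wild type. The list held 10 genes: the transferrin receptor gene Tfrc, the transferrin gene Trf, the iron transporter genes Slc11a2 and Slc40a1, the ferritin genes Fth1 and Ftl1, the iron regulatory protein genes Aco1 and Ireb2, and the heme genes Hmox1 and Alas2. Their probe sets were found by gene symbol in the platform annotation, and 8 of the 10 genes had a probe set with a single symbol: 18 of 22690 probe sets on the first array type (A) and 5 of 22575 on the second (B). The arrays carry probe sets of their own for 18193 gene symbols in all. The list was chosen by function, but with earlier results of the comparison of Egr3-deficient with wild-type pools in view, so the values of the members in that comparison are given as a description with no test.

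The study used total RNA from 3 pools, each of 3 spinal cords (segments L3 to L5) taken at postnatal day 27. Of these, 2 pools were labelled Egr3-deficient (pool 1, RNA 450, and pool 2, RNA 500) and 1 wild type (RNA 499), and each pool was labelled separately for each of the array types, giving 6 arrays. The labels name no strain, sex or allele for either genotype, and they carry a remark on acclimatization for pool 2 and the wild-type pool but not for pool 1. Egr3, a zinc finger transcription factor gene that muscle spindles require, did not read lower in both pools labelled Egr3-deficient: 24.9 and 52.7 against 40.6 in wild type on A, and 210 and 107 against 75.3 on B. The pools are therefore named by their labels.

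Cells take up iron bound to transferrin through the transferrin receptor, export it through ferroportin and store it in ferritin. Iron regulatory proteins, encoded by Aco1 and Ireb2, bind iron-responsive elements in messenger RNAs when iron is scarce: at elements in the 3' untranslated region of Tfrc they stabilise the transcript, and at elements in the 5' untranslated region of Fth1, Ftl1, Slc40a1 and Alas2 they block translation. In spinal cord, oligodendrocytes are rich in transferrin and ferritin, while Alas2, the erythroid enzyme that starts heme synthesis, marks immature red blood cells.

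RefSeq (GRCm38.p6) start-site windows, from 250 bases before to 50 after the start, were found for 6 of the 10 genes. Those of Tfrc (chr16:32608872-32609171, plus strand, the downstream of its 2 listed starts), Fth1 (chr19:9982396-9982695, plus strand, the downstream of 2) and Alas2 (chrX:150547167-150547466, plus strand) are shown because these genes read below, close to and above wild type. Capitals mark matches, on either strand, to any of 4 motifs that were picked after the members' values were known. The hypoxia core, found in hypoxia response elements, is ACGTG. The GATA site, bound by the erythroid factor among others, is AGATAA. The TATA motif searched is TATAA, and the GC box, bound by Sp-family factors, is GGGCGG.
Tfrc: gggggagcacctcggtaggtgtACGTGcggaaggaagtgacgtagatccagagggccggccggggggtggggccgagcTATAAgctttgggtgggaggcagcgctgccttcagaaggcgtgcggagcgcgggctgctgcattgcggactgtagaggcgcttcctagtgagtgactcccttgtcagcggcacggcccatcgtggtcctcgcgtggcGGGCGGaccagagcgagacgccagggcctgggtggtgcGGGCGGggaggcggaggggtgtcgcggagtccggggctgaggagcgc
Fth1: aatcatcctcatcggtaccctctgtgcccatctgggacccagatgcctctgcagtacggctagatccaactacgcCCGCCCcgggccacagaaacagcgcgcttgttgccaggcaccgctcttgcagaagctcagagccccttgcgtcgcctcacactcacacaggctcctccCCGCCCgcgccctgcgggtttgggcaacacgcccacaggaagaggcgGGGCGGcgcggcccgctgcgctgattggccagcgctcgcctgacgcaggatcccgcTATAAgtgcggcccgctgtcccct
Alas2: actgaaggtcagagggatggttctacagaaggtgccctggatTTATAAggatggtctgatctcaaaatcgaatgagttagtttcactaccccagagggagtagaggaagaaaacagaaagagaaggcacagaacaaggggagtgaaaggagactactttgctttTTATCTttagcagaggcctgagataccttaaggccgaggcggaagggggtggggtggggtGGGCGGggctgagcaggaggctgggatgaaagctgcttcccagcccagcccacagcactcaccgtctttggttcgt

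The Tfrc window held 1 hypoxia core, 1 TATA motif and 2 GC boxes. The Fth1 window held 1 TATA motif and 3 GC boxes. The Alas2 window held 1 GATA site, 1 GC box and 2 overlapping TATA motifs, 1 on each strand. Among all 32851 windows of the same length, 19.6% held the hypoxia core, 11.2% the GATA site, 24.9% the TATA motif and 35.7% the GC box, so a match is a description of the sequence only. Of the 6 genes, Alas2 alone had a GATA site and Tfrc alone a hypoxia core in these windows. Iron-responsive elements were not searched here.

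Tfrc read lower in both pools labelled Egr3-deficient than in wild type at every one of its 9 probe sets on the 2 array types. The brightest, 1452661_at on A, read 246 (pool 1), 444 (pool 2) and 785 (wild type), or 31.3% and 56.6% of wild type. The probe set 1422966_a_at read 36.8, 87.5 and 216 in the same order, and 1422967_a_at read 8.69, 20.5 and 60.3. At each of these 3 probe sets wild type was highest and pool 1 lowest.

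**Figure D1:**
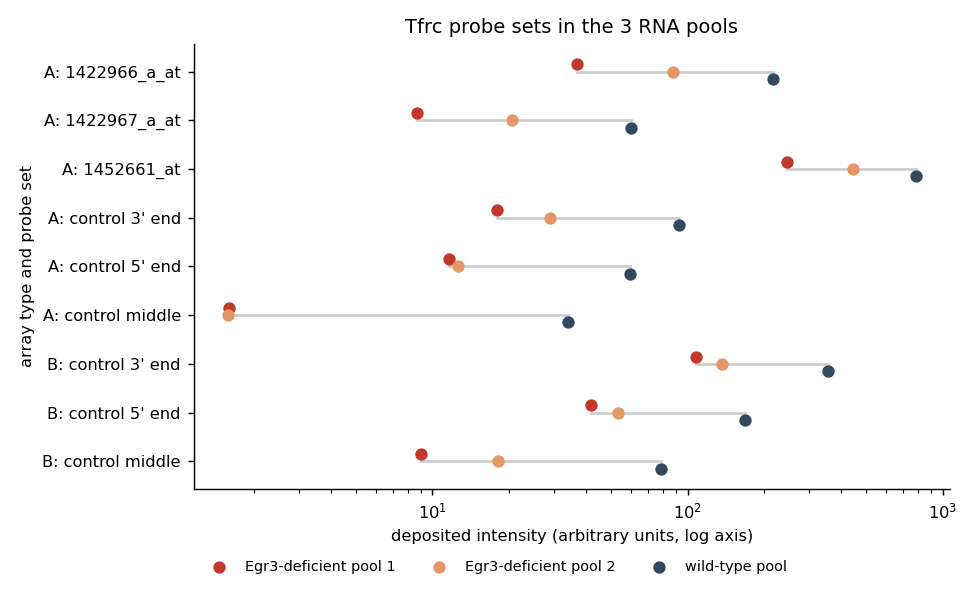
Deposited intensity (log axis) of the 9 Tfrc probe sets, 6 on array type A and 3 on array type B, in the 3 RNA pools, with points offset vertically for legibility. The wild-type pool reads highest in every row, and pool 1 is at or below pool 2 except at the control middle probe set on A, where they nearly coincide.

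Differences between pools were taken on the log2(intensity + 16) scale after quantile normalization, as pool minus wild type, and averaged over the 2 pools. Tfrc differed by -1.56 ± 0.59 at 1422966_a_at, -1.22 ± 0.58 at 1452661_at and -1.25 ± 0.30 at 1422967_a_at (SD between the 2 pools, n = 2 against 1 wild-type pool). The last of these lay below the filter on dim probe sets, set at the 40th percentile of mean signal (an intensity of 36.7 on A and 55.9 on B). The difference was larger in pool 1 at all 3, from -1.98 to -1.46, than in pool 2, from -1.14 to -0.82.

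The array maker's control probe sets for the transferrin receptor gave the same picture on both array types, at 3 positions along the transcript. On A, the 3' probe set read 18.0 and 28.9 in the pools labelled Egr3-deficient and 92.3 in wild type, the 5' probe set 11.6 and 12.6 against 59.4, and the middle one 1.59 and 1.58 against 33.9. On B, where the control signals were brighter, the 3' probe set read 108 and 136 against 354, the 5' one 41.9 and 53.6 against 168, and the middle one 9.02 and 18.1 against 78.4. On both array types the pools lay well below wild type at each position, and all 6 readings of those pools on A were under the filter intensity of 36.7.

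On the log2(intensity + 16) scale, the 3' and 5' ends of the transcript differed from wild type by about the same amount. On B the log2 difference was -1.41 ± 0.16 at the 3' end, -1.53 ± 0.27 in the middle and -1.39 ± 0.08 at the 5' end (SD, n = 2). On A it was -1.37 ± 0.17, -1.43 ± 0.03 and -1.32 ± 0.07 in the same order, though there the middle probe set was near the bottom of the scale. The 3' to 5' ratio of the pyruvate carboxylase control, which tracks how far labelling reached along a transcript, was higher in the same pools, at 4.20 and 3.80 against 2.42 on A and 5.82 and 4.02 against 3.85 on B. For Tfrc the 3' to 5' ratio was 1.55 and 2.29 against 1.56 on A and 2.57 and 2.54 against 2.11 on B. The 3' to middle ratio differed more, at 11.3 and 18.3 against 2.72 on A and 11.9 and 7.53 against 4.52 on B, with the middle probe set under the filter intensity in both pools on each array type. The 18S ribosomal RNA control differed far more, with ratios of 2.27 and 1.08 against 0.049 on A and 1.43 and 0.945 against 0.061 on B, while those of beta-actin lay between 1.36 and 1.52 in all pools. The part of RNA quality and labelling in the Tfrc readings was not tested.

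Among all probe sets, such a difference was uncommon but not rare. The 6 Tfrc differences on A lay between percentiles 1.31 and 3.55 of the differences of all non-control probe sets, and the 3 on B between 2.17 and 3.28. Of 1899 genes with at least 3 probe sets on A, 410 (21.6%) had all of them below wild type in both pools, and 48 (2.53%), with Tfrc among them, had a mean difference of -1 or lower at each. All 9 Tfrc readings rest on the same single wild-type pool, whose own spread was not measured, so they are repeat measurements of 1 contrast and not replicates.

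**Figure D2:**
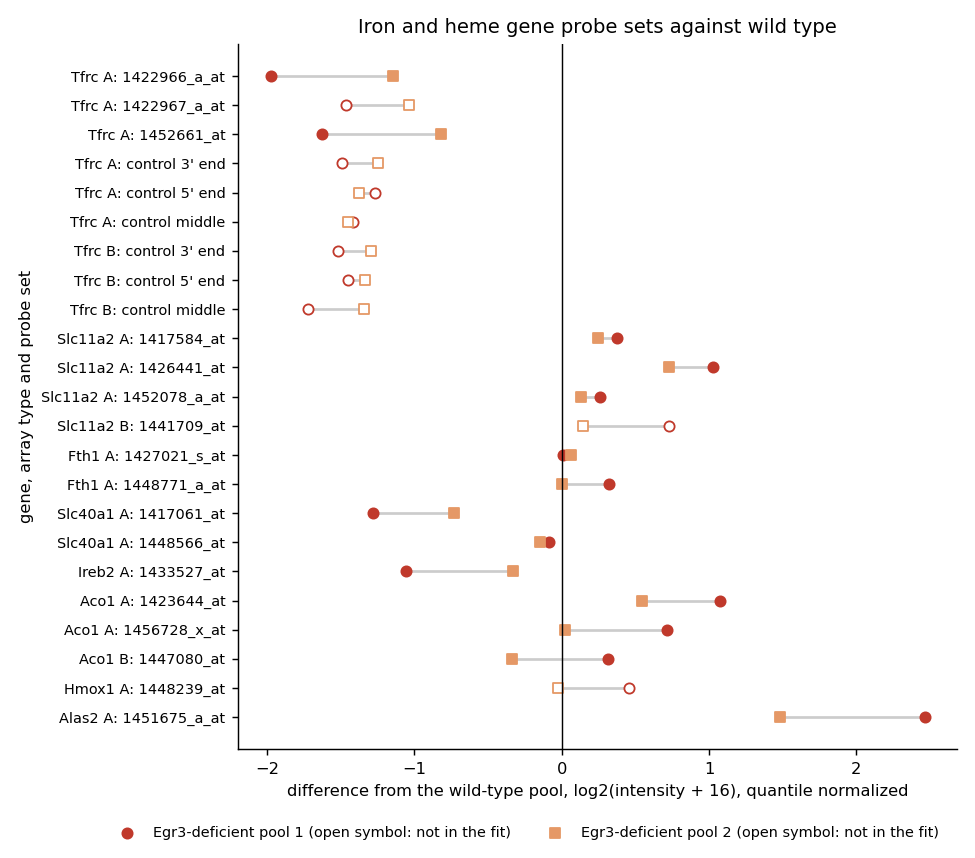
Difference from the wild-type pool, in quantile normalized log2(intensity + 16), of each member probe set in pool 1 (circles) and pool 2 (squares); open symbols are probe sets that did not enter the fit. All 9 Tfrc rows lie left of 0 and Alas2 lies farthest right, at 2.47 and 1.48.

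Slc11a2 encodes DMT1, the transporter that moves ferrous iron out of endosomes. It read above wild type in both pools at all 4 of its probe sets. Probe set 1426441_at read 89.2 (pool 1), 76.2 (pool 2) and 41.4 (wild type), a log2 difference of 0.88 ± 0.21 (SD, n = 2). The other 2 on A differed by less, with 63.3 and 63.7 against 53.4 at 1417584_at (0.31 ± 0.09) and 51.0 and 52.2 against 48.1 at 1452078_a_at (0.19 ± 0.09). The annotation gives 1426441_at and 1452078_a_at the same source sequence, yet 1426441_at had the larger difference. On B, 1441709_at read 19.6 and 9.86 against 8.55, all below the filter.

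Trf, the plasma iron carrier that oligodendrocytes and liver also make, had no probe set of its own. The probe set that carries its symbol together with Srprb, a signal recognition particle receptor gene, read 4973 and 4679 against 3989 in wild type, a log2 difference of 0.21 ± 0.21, and was counted for neither gene. Liver genes were far brighter in pool 2: on A the summed intensity of the 12 liver list genes measured was 690 (pool 1), 12465 (pool 2) and 304 (wild type). The part of liver RNA in the shared reading was not tested.

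Fth1, the ferritin heavy chain with the ferroxidase site, stayed close to wild type at both of its probe sets. Probe set 1448771_a_at read 7065, 7544 and 7237 in pool 1, pool 2 and wild type (0.16 ± 0.23), and 1427021_s_at read 7190, 10026 and 9996 (0.04 ± 0.03). In deposited intensity, pool 1 was lowest at both, and at 1427021_s_at it stood at 71.9% of wild type. The sign of the 1427021_s_at difference turned to -0.23 without quantile normalization, -0.11 under median centring and -0.27 under scaling on probe sets shared by the array types, and that of 1448771_a_at to -0.024 under the last, so no direction is given for Fth1. Both lay in the top 0.1% of mean signal on A, above percentile 99.9.

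Ftl1, the ferritin light chain, shared all of its probe sets with the pseudogene Ftl1-ps2 and was not counted. Of these, 1422302_s_at read 597 and 765 against 482 and 1418364_a_at read 378 and 364 against 269, with log2 differences of 0.46 ± 0.28 and 0.46 ± 0.02. The third, which also carries microRNA symbols, read 56.5 and 74.0 against 73.5. The first 2 were above wild type in each pool and the third was not.

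Slc40a1 encodes ferroportin, the only known cellular iron exporter. Its 2 probe sets, which the annotation assigns to the same source sequence, disagreed in size. Probe set 1417061_at read 47.9 (pool 1), 86.7 (pool 2) and 160 (wild type) (-1.01 ± 0.39, SD, n = 2), while 1448566_at read 52.0, 56.6 and 66.5 (-0.12 ± 0.04). Wild type was highest at both. The endothelial list, whose cells carry ferroportin, had 6 of 9 genes above wild type in each pool and 3 below, with a median difference of 0.16. The microglia and macrophage list had 8 of 12 above and 4 below, with a median of 0.27. The part of these cells in the Slc40a1 and Tfrc readings was not tested, and in bulk RNA fewer cells of a type and less RNA per cell cannot be told apart.

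The genes of the 2 iron regulatory proteins differed from wild type in opposite directions on A. Ireb2, which encodes the protein that is degraded when iron is plentiful, read 52.4 (pool 1), 108 (pool 2) and 145 (wild type) (-0.70 ± 0.51, SD, n = 2), so that pool 1 accounted for most of the difference. Aco1, which encodes the cytosolic aconitase that turns into an RNA-binding protein when it loses its iron-sulfur cluster, read 158, 109 and 73.6 at 1423644_at (0.81 ± 0.38). At 1456728_x_at it read 814, 476 and 476 (0.37 ± 0.49), and only pool 1 stood apart. On B its probe set read 94.2, 59.4 and 86.8 (-0.01 ± 0.46), with pool 1 above and pool 2 below wild type, so the direction on A was not seen there.

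Hmox1, the inducible heme oxygenase that frees iron from heme, read 34.5 (pool 1), 25.1 (pool 2) and 25.7 (wild type). Its probe set was under the filter, and the 2 pools lay on either side of wild type on the normalized scale (0.45 and -0.02).

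Alas2 stood farthest above wild type among the members. It read 104 (pool 1), 49.2 (pool 2) and 7.04 (wild type), a log2 difference of 1.97 ± 0.70 (SD, n = 2), with 2.47 in pool 1 and 1.48 in pool 2. The difference lay at percentile 99.7 of all non-control probe sets on A. The wild-type reading was far under the filter intensity of 36.7, and the pool 2 reading was not far above it.

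Of 15 globin probe sets on A, 8 were above wild type in both pools, 3 below and 4 between. The 11 with a single symbol were all under the filter, and of these 4 were above, 3 below and 4 between; Hba-x, an embryonic alpha-like globin, read 2.07 and 4.28 against 36.3. All 4 that carry several adult globin symbols, 3 for the alpha-globin genes Hba-a1 and Hba-a2 and 1 for the beta-globin genes, were above wild type in both pools. The beta-globin probe set read 4001 (pool 1), 3184 (pool 2) and 1128 (wild type) (1.56), and the brightest alpha-globin one read 5912, 5797 and 2799 (1.02). The dimmest alpha-globin one read 549, 284 and 55.2 (2.60). None of the 4 passed the test (limma adjusted p from 0.112 to 0.161), and these 4, like Alas2, read higher in pool 1 than in pool 2.

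Genes of the red blood cell list were mixed. The list includes Hba-a1, Hba-a2 and Hbb-b2, globin genes with probe sets already counted above. Only 5 of its 12 genes measured on A passed the filter, so the following counts and medians rest largely on dim readings. Of the 12 single-symbol genes of the red blood cell list measured on A, 6 exceeded wild type in both pools, 2 lay below and 4 between, with medians of 0.53 in pool 1 and 0.01 in pool 2, and their summed intensity was 1752, 1311 and 1251 in pool 1, pool 2 and wild type. The 3 brightest were Tmcc2 (930, 667 and 522), Bpgm, which makes a red cell metabolite that loosens oxygen from hemoglobin (429, 406 and 487), and Slc4a1, the band 3 anion exchanger (144, 39.6 and 54.9). Slc4a1 was thus above wild type in pool 1 only. The part of blood in the Alas2 reading was not tested.

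**Figure D3:**
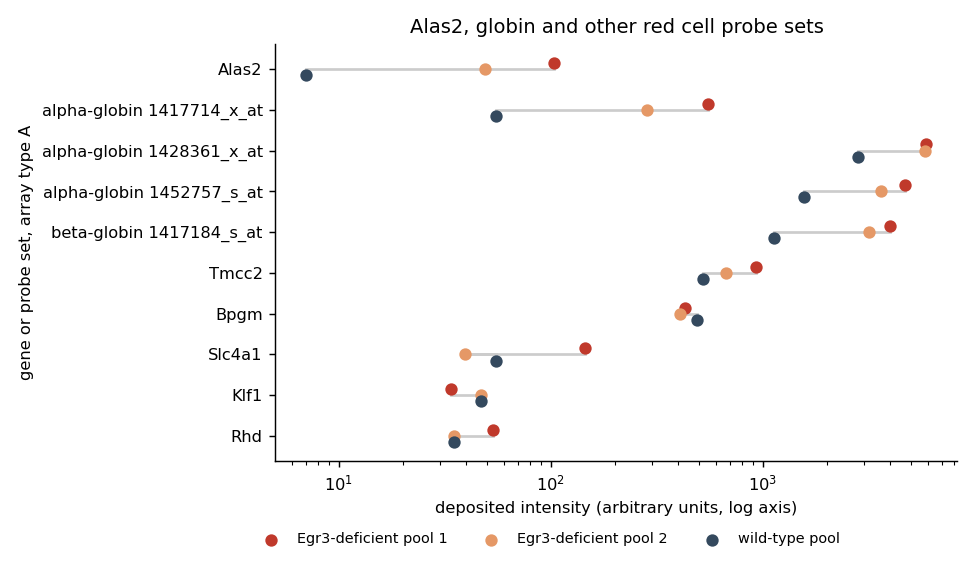
Deposited intensity (log axis) on array type A of Alas2, the 4 globin probe sets with several symbols and the other red cell list genes that passed the filter, in the 3 pools, with points offset vertically for legibility. Wild type is lowest for Alas2 and all 4 globin probe sets but not for Bpgm, Slc4a1, Klf1 or Rhd.

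Taking every member probe set, on A 7 of 18 exceeded wild type in both pools, 9 lay below and 2 between, where 42.7% of all non-control probe sets were above and 35.5% below. On B, 1 of 5 was above and 3 below, against 37.8% and 35%. At least 2-fold differences in both pools were seen at 1 higher probe set on A (Alas2) and 5 lower (all Tfrc), where the background was 1.14% higher and 3.38% lower. On B there were 0 higher and 3 lower (the Tfrc controls), against a background of 4.47% and 3.55%. Because 9 of the 23 probe sets are of Tfrc, these shares describe Tfrc more than the list. The median difference was -0.04 on A and -1.39 on B, and 0.05 and 0.02 over all non-control probe sets. With 1 probe set for each gene, the one with the highest mean, and without control probe sets, the member medians were 0.13 on A, over 8 genes, and 0.21 on B, over 2.

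**Figure D4:**
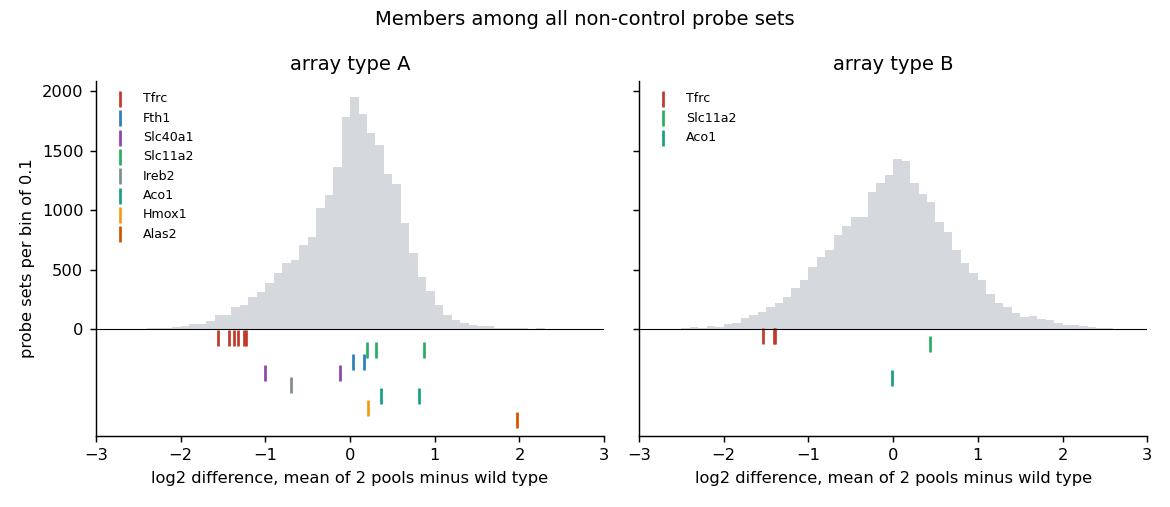
Histogram of the log2 difference (mean of the 2 pools minus wild type) of all non-control probe sets on array types A and B, with member probe sets as ticks below the axis, 1 height for each gene. The Tfrc ticks lie in the left tail on both array types, from -1.56 to -1.22 on A, and the Alas2 tick in the right tail at 1.97 on A.

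In the fit across all kept probe sets (limma, adjusted p under 0.05), 0 of the 13 member probe sets that passed the filter on A and 0 of 1 on B were called, and 5 and 0 lay under an unadjusted limma threshold of 0.05. Control probe sets were not fitted. The fit called 0.0663% of kept probe sets higher and 0% lower on A, and 1.02% higher and 0.607% lower on B. At the unadjusted threshold, limma had 1077 probe sets higher and 1730 lower on A, and 1000 and 923 on B. Nothing is read from these counts, since the members were chosen with this contrast in view.

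The wider set of iron and heme genes held 67 further genes, of which 54 were on A and 24 on B. None was called on either array type by limma, where 43 and 19 genes passed the filter and the lowest adjusted p was 0.161 and 0.0966. The filter kept 60 of their probe sets on A and 25 on B. Before the filter, 51.2% of their 86 probe sets on A were on the upper side of wild type in both pools and 22.1% on the lower, with a median difference of 0.26. On B 45.5% of 33 were above and 33.3% below, with a median of 0.17. Over all non-control probe sets, 42.7% were above and 35.5% below on A, and 37.8% and 35% on B. Under median centring on A, where limma called 1.67% of all kept probe sets higher and 4.4% lower, 7 of these genes were called: Alad, Blvrb, Hamp, Hp, Hpx and Lcn2 higher and Hspa9 lower.

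Heme enzymes lay mostly above wild type, and so did other iron gene lists on A. Of 12 heme synthesis and breakdown genes on A, 9 were above it in both pools and 0 below, with a median of 0.42. Each gene was taken at its probe set with the highest mean, and a dimmer one of Ppox lay below in both pools, at -0.42 and -0.10. Over all non-control probe sets on A, 42.7% were above and 35.5% below. That share includes dim probe sets, while 11 of the 12 heme genes passed the filter. On A, 8 of 11 mitochondrial iron and iron-sulfur cluster genes and 7 of 10 iron entry genes were also above in both pools. The same held for 6 of 10 storage and sensing genes and 5 of 11 export genes, so the direction was not particular to heme enzymes. Blvrb, a biliverdin reductase, read 126 and 117 against 36.1 (log2 difference 1.49, SE 0.33, limma adjusted p = 0.161). Alad, the second enzyme of heme synthesis, read 193 and 181 against 76.4 (1.23). On B, Urod, a later enzyme of the same pathway, read 3658 and 2602 against 1196 (1.02, limma adjusted p = 0.105), and its probe set on A differed by 0.80. Glrx5, a mitochondrial glutaredoxin of iron-sulfur cluster assembly, read 8343 and 5347 against 2572 (0.90, limma adjusted p = 0.0966) and was called at a pseudocount of 64 and under a stricter filter (60th percentile), where 1.24% and 2% of all kept probe sets were called higher. Alad and Blvrb are, like Alas2, also abundant in red cells, and the part of blood was not tested.

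Several further genes of iron and heme handling lay above wild type in 1 pool or both, and the pool with the higher reading differed between them. Hp, which binds free hemoglobin, read 43.8 (pool 1), 316 (pool 2) and 2.33 (wild type) (log2 difference 3.00, SE 0.81, limma adjusted p = 0.161). Hpx, which binds free heme, read 14.5, 632 and 19.8 and was high in pool 2 alone, and Hamp, the hepcidin gene, read 29.6, 91.6 and 14.7. Lcn2, which binds iron-carrying siderophores, read 210, 132 and 38.3 (1.84), with the higher value in pool 1. Cp, of the same wider set and picked with its values known, was mixed. Its probe sets on A, those under the filter included, differed by -0.71 to 0.41, and the one on B by -0.49. On B, Hephl1, a ferroxidase-like gene, read 61.3 and 97.0 against 29.9 (1.22), and Hjv, a hepcidin co-regulator that skeletal muscle also makes, read 258 and 227 against 145 (0.77). All 12 skeletal muscle list genes on A were above wild type in both pools, with a median of 3.57. Over all non-control probe sets on A, 42.7% were above in both pools and the median was 0.05. The part of liver and muscle RNA in these readings was not tested.

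The genes below wild type included several that handle iron inside cells. Steap2, a ferrireductase that supplies ferrous iron to DMT1, read 125 and 264 against 469 at one probe set on B (-1.32, SE 0.46, limma adjusted p = 0.133), and its other 4 differed by -1.09 to -0.21. Ncoa4, the receptor that takes ferritin to the lysosome, read 203 and 243 against 396 on A (-0.76) and differed by -0.43 at its other probe set. Hspa9, the mitochondrial chaperone of iron-sulfur cluster transfer, read 17.1 and 30.5 against 100 at the probe set with the largest difference (-1.47) but differed by -0.97, -0.11 and 0.34 at its other probe sets on A and by -0.32 on B. Smaller differences were seen for Isca1 (-0.26) and Abcg2 (-0.28) on A and for Flvcr1 (-0.56) and Lrp1 (-0.22) on B. The probe sets of Flvcr1 and Lrp1 on A lay the other way, at 0.29 and 0.47.

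**Figure D5:**
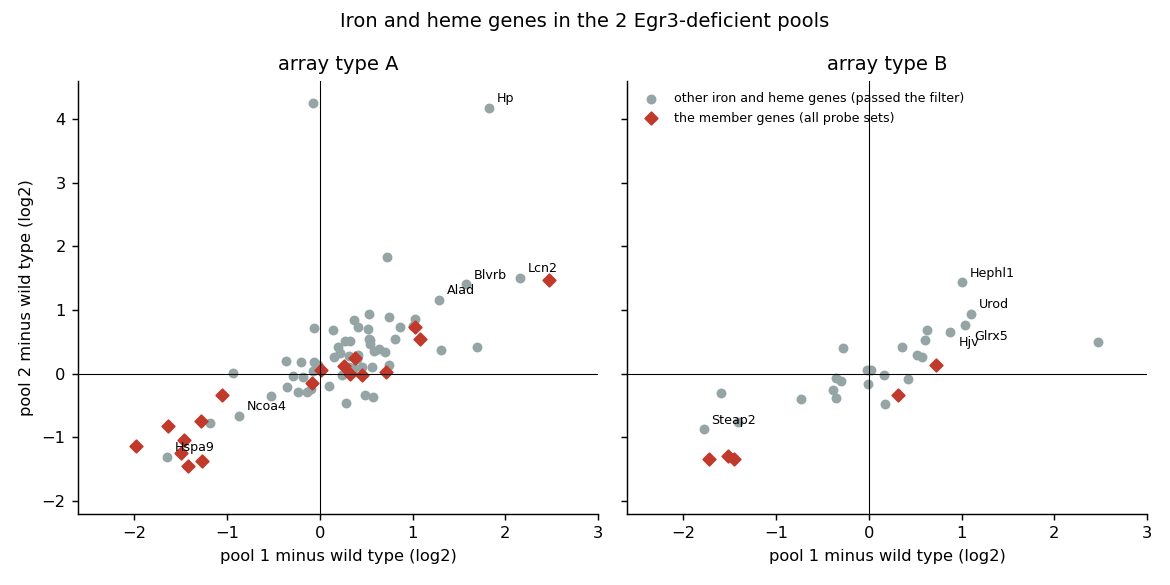
Difference from wild type in pool 1 (x axis) and pool 2 (y axis), in log2(intensity + 16), of the other iron and heme gene probe sets that passed the filter (grey) and of all member probe sets (red diamonds), by array type. Both axes share the wild-type pool, so points gather along the diagonal; Tfrc lies at the lower left on both array types and Hpx and Hp are highest in pool 2, at 4.25 and 4.18.

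Across the members on both array types, pool 1 lay farther from wild type than pool 2 at 16 of the 20 probe sets with both pools on 1 side. Of all such non-control probe sets, 11358 of 17686 on A (64.2%) and 10473 of 16382 on B did the same. Since 9 of the 20 are repeat readings of Tfrc, the count is not a property of the list. Markers of the tissue itself were bright in all pools: the oligodendrocyte and myelin list on A summed to 28048, 34509 and 44012 in pool 1, pool 2 and wild type, with 1 of 9 genes above wild type in each pool and 5 below, and the neuron list to 15126, 16518 and 19999, with 3 of 10 above and 6 below. These sums are of deposited intensity. After normalization, the median difference on A was -0.27 for the oligodendrocyte list and -0.29 for the neuron list. Mbp, the brightest gene of the oligodendrocyte list, read 8836, 11730 and 14549. Its normalized difference was 0 in pool 1 and -0.11 in pool 2. Mbp held the same rank in pool 1 and wild type, and quantile normalization gives equal ranks equal values. The 0 therefore does not measure the size of its change. The next brightest, Cnp (6058, 8251 and 10143) and Mobp (2872, 5260 and 6394), differed by -0.27 and -0.70 and were below wild type in both pools. On B, where 3 and 5 genes of these lists were measured, the sums were higher in both pools than in wild type, at 17705 and 13857 against 11962 for the oligodendrocyte list and 21959 and 23292 against 20632 for the neuron list. After normalization, the 3 oligodendrocyte genes on B were mixed, with 1 above, 1 below and 1 between. Their median was 0.07, at 0.22 in pool 1 and -0.08 in pool 2, and does not describe each gene. The neuron median on B was -0.41 despite the higher sums, with 1 gene above and 3 below. The astrocyte list on A had 3 of 8 genes above wild type in each pool and 3 below, with a median of -0.02. On B, 0 of 4 astrocyte genes were above and 3 below. Their median there was -0.69, at -1.11 in pool 1 and -0.27 in pool 2. Neurons and oligodendrocytes both express Tfrc, and their part in its reading was not tested.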

How the data were processed

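Each of 3 RNA pools was hybridised to 2 array types. The authors deposited 1 linear intensity for each probe set and array (summarising program: not given in the sources used here). Deposited values had means, trimmed by 2% at each tail, of 150.02 to 150.06. Quantile normalization of log2(intensity + 16) used the 22626 (A) and 22511 (B) non-control probe sets; control probe sets were read off the same map by interpolation. Probe sets at or above the 40th percentile of mean log2 value, 13576 on A and 13507 on B, were fitted with limma 3.58.1 in R 4.3.3 (eBayes, trend on mean signal), adjusting p by Benjamini-Hochberg over each array type. With 1 residual degree of freedom, wild type was taken to vary like the other pools. The prior degrees of freedom were 6.54 on A and 52.3 on B. SEs and p-values thus rest mostly on the spread between the 2 pools at other probe sets of like signal. They do not measure the spread of wild type. The number of arrays limits the precision. Symbols came from the platform annotation, and those of 20351 (A) and 14486 (B) probe sets matched RefSeq (GRCm38.p6); probe sets with several symbols (691 on A, 245 on B) were not counted for a gene. Differences understate changes of dim genes. Members, lists and motifs were chosen with earlier results of these data known. Counts, sums and medians of a gene list take each gene at its non-control probe set with the highest mean. All members are described; other iron genes were named where called, then the 4 highest and 4 lowest on each array type by the smaller of the 2 pool ratios. Alternatives covered normalization, pseudocount, filter, variance prior, replicates and probe set choice; including control probe sets in the normalization was added after seeing the data. The test was tested on simulated data. The simulation gave all pools and probe sets the same spread, so it could not check that wild type varies like the other pools. The labels give no batch; the pools' separate numbers and the acclimatization remark cannot be told apart from pool.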

Additional observations from a re-analysis of the deposited data

How the results depend on the processing

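The count of further iron and heme genes past the threshold was 0 on both array types. All alternatives run gave 0 except these: it was 7 on A under median centring, where 227 probe sets were called higher and 597 lower and the members Alas2 and Tfrc were called too. On B it was 1 (Glrx5) at a pseudocount of 64 and under a stricter filter (60th percentile). Over all probe sets, calls on A were 9 higher and 0 lower; on B they were 138 and 82, 2 and 0 without quantile normalization, and 0 without the trend, with no filter or under shared scaling. The causes were not tested.

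The median member difference was -0.04 on A and -1.39 on B. It was -0.23 on A without quantile normalization, -0.11 on A and -1.26 on B under median centring, -0.27 and -1.98 under scaling on the 100 shared probe sets, -1.51 on B at a pseudocount of 1, -0.79 on B at 64, and 0.13 on A and 0.21 on B with 1 probe set for each gene, which leaves the Tfrc controls out. Under shared scaling, all probe sets on B had a median of -0.55, and the Tfrc controls there -2.10 to -1.98. Leaving out pool 1 or pool 2 gave -0.086 and -0.037 on A, and -1.30 and -1.45 on B. Filter and prior do not enter these medians. Of 138 member values over the 6 alternatives that keep both pools, 39 moved by more than the SD between pools and 5, at 3 probe sets of Fth1 and Aco1, changed sign. Leaving out a pool ended the sign of 3 values, of Fth1, Hmox1 and Aco1. The Tfrc ratio of the pools to wild type was 1.23 on A and 1.21 on B from 3' to 5', 5.43 and 2.16 from 3' to middle, and 0.23 and 0.59 from middle to 5'. All 9 Tfrc probe sets stayed below wild type in both pools in each alternative, between -3.64 (pseudocount 1) and -0.54 (pseudocount 64). No paired analysis was possible because wild type is 1 pool. Readings below an intensity of about 37 on A, as for Alas2 in wild type and most Tfrc controls, limit how large these differences can be said to be.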

Other observations

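Genes of the oxidative stress programme to which Hmox1 belongs, with heat shock and metallothionein genes, were mixed on A: of 14 measured, 7 were above wild type in both pools, 4 below and 3 between, 0 passed the test (limma), and the median difference was 0.17. The brightest were the metallothionein genes Mt1 (3823 and 4836 against 3604) and Mt2 (1916 and 2055 against 1961, a normalized difference of -0.17), and the small heat shock protein gene Hspb1 (804 and 850 against 508). Bach1, the heme-sensing repressor of Hmox1, was picked with its values known, and it read 48.2 and 83.5 against 140.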
